A study of Mus musculus with 12 samples.

Results

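The serine proteases of the epidermis and their inhibitors are described here across sorted hair follicle stem cells and total keratinocytes of mouse skin. The 10 genes are the membrane-bound proteases Tmprss4 and St14, the kallikreins Klk5, Klk6, Klk7, Klk8, Klk10 and Klk11, and the inhibitors Spint1 and Spink5. They were chosen on measured values of these arrays, because Tmprss4 was the gene most lowered in the stem cell fractions, so differences between stem cell fractions and total keratinocytes are given below as a description with no test. Each gene had 1 probe set, out of 18193 genes on the array, and 9 of the 10 passed the filter on low values. Klk6 did not: its signal was above the median of all probe sets on 1 of the 12 arrays, and it entered no test.

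The arrays held RNA of female mice of 72 to 74 days, of mixed C57BL/6 and CD1 background, with no treatment named. Het mice were labelled TßRII-Het and cKO mice TßRII-cKO, for the TGFß receptor type II gene Tgfbr2, and what drives the deletion is not given in the labels. Cells were sorted on Rosa26-YFP, P-cadherin and CD34 into HG (hair germ), bulge and total keratinocytes (YFP+), and each fraction of each genotype was taken in a set 1 and a set 2. In set 1 the HG and bulge of both genotypes were quiescent, while in set 2 the Het HG and bulge were activated and the cKO HG and bulge aberrantly quiescent. Of the 10 groups, 8 thus had 1 array each, and the total keratinocytes of each genotype had 2. No label says that the arrays came from separate mice, so the p-values measure only the spread between these samples, which may be technical. In bulk samples, fewer cells of a type and less RNA per cell cannot be told apart.

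Skin proteases work as a chain. Matriptase (St14) is a transmembrane protease that activates other proteases at the cell surface, and its partner Spint1, also called HAI-1, is a transmembrane inhibitor that holds it in check. Kallikreins are secreted proteases, made mainly in the upper, differentiating layers, where Klk5 and Klk7 cleave the corneodesmosomes that tie dead surface cells together. Spink5 encodes LEKTI, the inhibitor of these kallikreins, whose loss causes Netherton syndrome in people.

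The 6 kallikrein genes lie side by side on chromosome 7, in the order Klk11, Klk10, Klk8, Klk7, Klk6 and Klk5, with Klk9, which is not among the 10 genes, between Klk10 and Klk8. RefSeq's promoter table (GRCm38.p6) held 9 windows for 7 of the 10 genes, each from 250 bases before to 50 after a start. Klk11, whose signal was lowest on the activated HG array, is not shown. Below are the windows of 3 other kallikreins with their lowest signal on that array, and that of Spint1, whose signal was highest there. Each is on the + strand and shown to 30 bases after the start, as 280 bases: Klk5 at chr7:43842019-43842298, Klk7 at chr7:43811044-43811323, Klk8 at chr7:43797327-43797606 and Spint1 at chr2:119237110-119237389. Capitals mark the one match to the motifs searched.
Klk5: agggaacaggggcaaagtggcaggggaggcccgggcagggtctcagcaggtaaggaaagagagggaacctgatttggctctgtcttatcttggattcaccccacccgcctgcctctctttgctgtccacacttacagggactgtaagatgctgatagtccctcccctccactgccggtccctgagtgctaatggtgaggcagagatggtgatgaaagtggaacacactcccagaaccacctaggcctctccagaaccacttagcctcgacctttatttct
Klk7: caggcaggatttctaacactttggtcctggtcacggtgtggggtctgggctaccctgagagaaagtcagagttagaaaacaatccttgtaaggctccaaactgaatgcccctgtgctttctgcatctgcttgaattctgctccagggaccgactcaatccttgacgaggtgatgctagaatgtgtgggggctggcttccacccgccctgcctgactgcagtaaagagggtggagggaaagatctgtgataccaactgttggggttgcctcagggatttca
Klk8: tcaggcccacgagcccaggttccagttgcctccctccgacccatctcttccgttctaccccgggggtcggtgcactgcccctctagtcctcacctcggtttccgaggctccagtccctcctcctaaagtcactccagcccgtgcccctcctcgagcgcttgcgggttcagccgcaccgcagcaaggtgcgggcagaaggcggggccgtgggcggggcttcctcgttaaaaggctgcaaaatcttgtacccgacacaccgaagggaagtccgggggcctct
Spint1: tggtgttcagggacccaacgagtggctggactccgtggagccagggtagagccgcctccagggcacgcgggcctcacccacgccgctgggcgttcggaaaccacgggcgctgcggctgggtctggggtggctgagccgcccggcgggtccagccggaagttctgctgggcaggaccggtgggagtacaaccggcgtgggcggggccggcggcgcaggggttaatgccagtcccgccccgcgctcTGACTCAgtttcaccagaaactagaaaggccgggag

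These windows differ in composition. The 300-base Klk7 window had 4 CpG sites and a GC content of 52.0%, and that of Klk5 5 sites and 55.7%, against medians of 7 sites and 52.7% over all 32851 promoters of the table. Klk8 stood apart from both with 23 CpG sites and 65.3%, and Spint1 had 28 sites and 69.7%. An AP-1 motif (TGANTCA, both strands) occurred in 1 of the 9 windows, that of Spint1, from 6 bases before the start to the start itself, and in 7.81% of all promoters. A TATA box (TATAAA) was in none of the 9 and in 13.6% of all, and a Grhl motif (AACNGGTT) in none of the 9 and in 2.09% of all. The motifs overlapped nowhere in these windows.

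Values are log2 of the authors' MAS5 signal, in which a step of 1 is a 2-fold difference. A probe set's signal depends on its own probes, so levels are compared between arrays and never between genes. The fractions carried their defining markers: Cd34 lay at 14.42 to 14.79 in the bulge and at 7.65 to 8.69 in the HG, and Cdh3, which encodes P-cadherin, was higher in the HG than in the bulge by 1.24 (adjusted p = 0.0028). Melanocyte markers were also high in the HG, with a mean of 10.14 to 10.69 against 6.99 to 7.95 in the bulge, and all 6 rose there. Fibroblast markers were high in the bulge, at 13.21 to 14.62 against 9.94 to 11.04 in the HG, and all 6 fell in the HG. One array, cKO total keratinocytes of set 1, carried much milk protein RNA, with a mean of 11.59 over the milk genes. The other cKO arrays of set 1 came next, at 6.15 in the HG and 5.67 in the bulge, against 4.52 to 4.90 elsewhere. The detected Tgfbr2 probe set lay at 10.35 to 12.39 on Het and 11.31 to 12.14 on cKO arrays and was higher in cKO in 4 of 6 pairs. The labels do not say which part of the gene was deleted, so these values do not check the genotype, and Het and cKO are used as labelled.

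Tmprss4, a transmembrane serine protease, was far lower in the stem cell fractions than in total keratinocytes, and 4 of the 6 kallikreins and Spink5 were lower with it, while St14 and Spint1 differed little on average. In total keratinocytes Tmprss4 lay at 11.27 and 11.12 in Het and at 11.24 and 11.87 in cKO (set 1, then set 2). In the HG it lay at 9.54 and 6.78 in Het and at 9.66 and 8.97 in cKO, and in the bulge at 8.75 and 7.64 in Het and at 8.74 and 7.94 in cKO. All 8 stem cell arrays were thus below all 4 total keratinocyte arrays, a gap whose share among all genes was not counted. The mean was 11.38 ± 0.34 (SD, n = 4) in total keratinocytes, 8.74 ± 1.34 (SD, n = 4) in the HG and 8.27 ± 0.57 (SD, n = 4) in the bulge. HG and bulge together minus total keratinocytes gave -2.87, a 7.32-fold difference, and a stem cell array minus the total keratinocytes of its own genotype and set gave -4.34 to -1.58. Over the 18 alternatives the difference ran from -3.15 to -2.53, and nothing is read from that range, since this contrast chose the gene. Several alternatives, such as the floor and the probe set rule, left it unchanged. Leaving out a total keratinocyte array gave the same value as leaving out its whole condition.

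**Figure D1:**
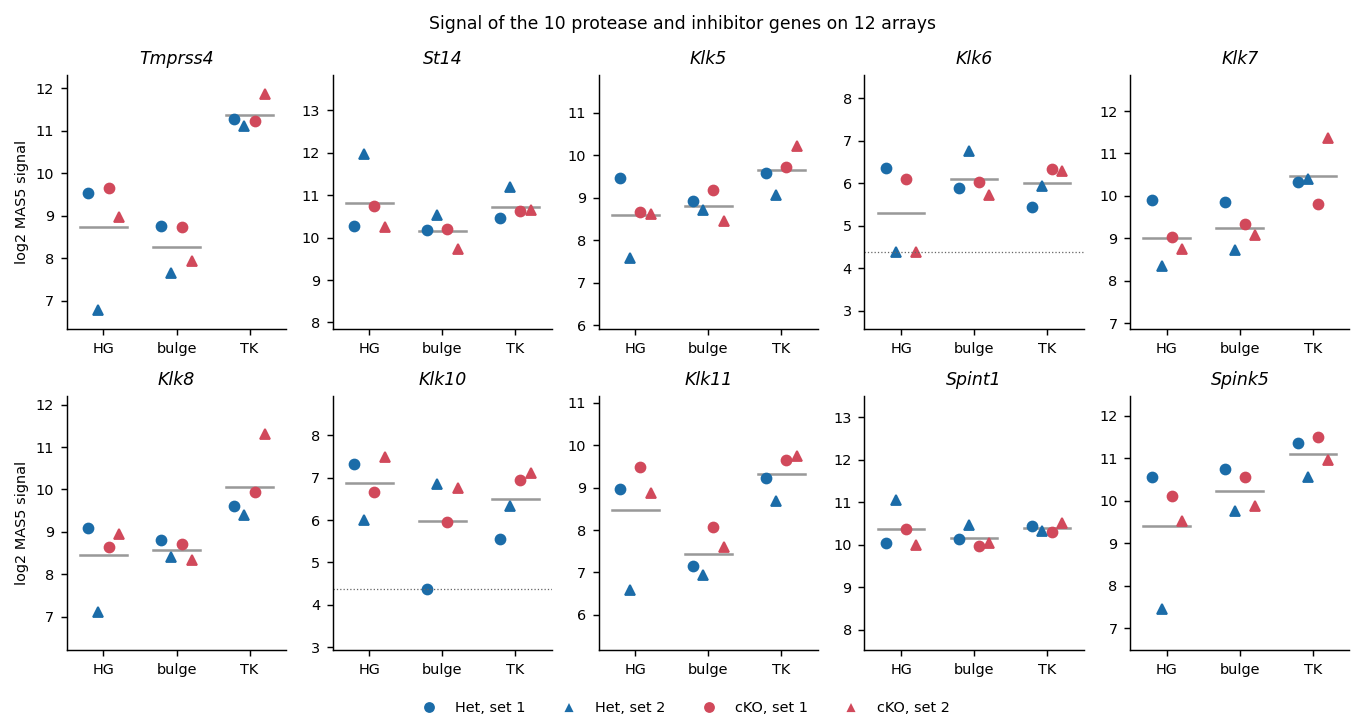
The log2 MAS5 signal of each of the 10 genes (vertical axis) in HG, bulge and total keratinocytes (TK) on the 12 arrays. Blue marks Het and red cKO, circles set 1 and triangles set 2, grey bars are the mean of the 4 arrays, and the dotted line is the floor of 4.37. Each panel spans its own levels. Tmprss4 is below 9.7 on each HG and bulge array and above 11.1 on each TK array, and the blue HG triangle is the lowest point for Tmprss4, Klk5, Klk7, Klk8, Klk11 and Spink5.

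Of the kallikreins, Klk8, also called neuropsin, was 2.93-fold lower in stem cell fractions than in total keratinocytes (a difference of -1.55), Klk11 2.58-fold (-1.37) and Klk7 2.55-fold (-1.35). Each was lower in 8 of 8 pairs of a stem cell array with its own total keratinocytes, as was Klk5 (-0.94). Klk8 lay at 9.61 and 9.40 in Het and 9.93 and 11.30 in cKO total keratinocytes. At 7.12 to 9.09 in the HG and 8.33 to 8.82 in the bulge, no stem cell array reached these values. How many of all genes had such a gap, or were lower in 8 of 8 pairs, was not counted. Nothing is read from either, since this contrast chose the genes. Klk7 lay at 9.82 to 11.37 in total keratinocytes against 8.35 to 9.91 in the HG and 8.73 to 9.85 in the bulge, where the Het arrays of set 1 reached into the total keratinocyte range. Klk5 overlapped too, at 9.06 to 10.22 against 7.58 to 9.46 in the HG and 8.45 to 9.18 in the bulge. Klk11 differed between the stem cell fractions as well: it lay at 8.68 to 9.74 in total keratinocytes, at 8.96, 9.49 and 8.86 on 3 HG arrays and 6.59 on the fourth, and at 6.93 to 8.08 in the bulge. Klk11 in the HG, the activated array aside, was therefore within the range of total keratinocytes, and in the bulge below it on each array.

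Klk6 and Klk10 were dim. Klk6 lay at the floor on the 2 HG arrays of set 2 and at 5.43 to 6.75 on the other arrays, with no fraction apart. Klk10 lay at 6.00 to 7.49 in the HG, at the floor to 6.85 in the bulge and at 5.56 to 7.10 in total keratinocytes, and stem cell fractions minus total keratinocytes gave -0.06.

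Neither membrane partner set the HG and bulge together apart from total keratinocytes. St14, which starts the chain, lay at 10.24 to 11.96 in the HG, 9.72 to 10.52 in the bulge and 10.46 to 11.18 in total keratinocytes. Against total keratinocytes the bulge alone gave -0.57 for St14, with each pair lower (-0.91 to -0.29), and the HG alone gave 0.08. Spint1 lay at up to 11.06 in the HG, 9.97 to 10.47 in the bulge and 10.31 to 10.51 in total keratinocytes. Stem cell fractions minus total keratinocytes gave -0.25 for St14 and -0.14 for Spint1, with 6 and 5 of the 8 pairs lower, and all groups overlapped. The LEKTI gene Spink5, in contrast, was 2.41-fold lower (-1.27), in 8 of 8 pairs, at 10.56 to 11.51 in total keratinocytes, 9.76 to 10.74 in the bulge and 7.44 to 10.56 in the HG, with some overlap. Of the 9 genes that passed the filter, 5 were at least 2-fold lower in the stem cell fractions, against 3.75% of all 12749 genes, and nothing is read from that count, since this contrast chose the genes. The median difference was -1.27 for the 9 genes and 0.05 for all. How many of all genes were lower in 8 of 8 pairs, as Spink5 was, was not counted.

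Between HG and bulge, no gene of the 9 passed the test (limma, adjusted p under 0.05), where 19.2% of all 12589 genes did. At an unadjusted p under 0.05 there were 3, against 33.1% of all genes. St14 was higher in the HG by 0.65 (SE 0.22, adjusted p = 0.068) and in 4 of 4 pairs. Klk11 was higher by 1.04 (SE 0.36, adjusted p = 0.074) and in 3 of 4 pairs, and Spink5 was lower in 4 of 4 pairs, at -0.82 (SE 0.33, adjusted p = 0.12). Tmprss4 differed by 0.47 (SE 0.32, adjusted p = 0.35), Klk10 by 0.89 (adjusted p = 0.32), Spint1 by 0.21, and Klk5, Klk7 and Klk8 by -0.23, -0.23 and -0.11. The pair of Het arrays of set 2 went against the others: Tmprss4 was higher in the HG by 0.78, 0.92 and 1.03 in the other pairs, and the difference was -0.86 in the activated one. Without that pair, Tmprss4 was higher in the HG by 0.91 (adjusted p = 0.0036) and Klk11 by 1.49 (adjusted p = 3.08e-04); these 2 of 9 are near the share of all genes called in that fit, 22.7%. With quantile normalization Klk11 passed on all arrays, at 1.09 (adjusted p = 0.039), 1 of 9 against 21.4% of all genes. The median difference was 0.21 for the 9 genes and -0.02 for all.

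The activated HG, 1 array, had the lowest signal of all 12 arrays for 6 genes: Tmprss4, Klk5, Klk7, Klk8, Klk11 and Spink5, where 22.4% of the 11540 genes above the filter had their lowest value there. Nothing is read from that share, since genes chosen as lower in stem cells can be lowest only among the stem cell arrays. Tmprss4 lay at 6.78 there against 8.97 to 9.66 on the other HG arrays, 6.08-fold below their mean. Spink5 lay at 7.44 against 9.53 to 10.56, 6.21-fold below, and Klk11 at 6.59 against 8.86 to 9.49, 5.69-fold below. Inhibitor and kallikreins were thus low on the same array. Klk8 lay 3.42-fold below the other HG arrays and Klk5 2.52-fold below. These 5 genes were at least 2-fold below each other HG array, against 10.9% of all genes, and St14 alone was at least 2-fold above each, at 11.96 against 10.24 to 10.75, against 4.36% of all. Its inhibitor Spint1 was also highest there, at 11.06 against at most 10.37.

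These counts have no replicate behind them, and they were chosen after the values had been seen. The array also stood apart from the other HG arrays as a whole, with a median signal of 63.9 against 95.6 to 98.8 and with 29.0% of its probe sets at the floor, near the total keratinocyte arrays of set 2 (65.5 and 66.3, with 28.2% at the floor on both). With quantile normalization, which evens out such shifts, 4 genes stayed at least 2-fold below each other HG array (6.96% of all genes), Klk5 being the one lost, while St14 stayed above (5.41%), and the same 6 had their lowest value there (18.5%, of which nothing is read either). The activated HG is also 1 of the 8 arrays behind the contrast that chose the genes.

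Markers of suprabasal epidermis had their lowest mean on the same array, though not each of them was low there. All 8 were measured, and their mean log2 signal was 10.05 on the activated HG, 11.20 to 12.10 on the other HG arrays, 10.55 to 11.83 in the bulge and 12.56 to 13.09 in total keratinocytes. Their summed signal ranged on the log2 scale from 14.39 to 16.66 in the HG, 16.21 to 16.97 in the bulge and 17.15 to 17.55 in total keratinocytes. In stem cell fractions 5 of the 8, Krt1, Krt2, Calm4, Krtdap and Krt10, were at least 2-fold lower than in total keratinocytes. Sbsn went the other way in the bulge, at 15.23 to 15.43 against 14.52 to 15.05 in total keratinocytes. In the HG it lay at 12.31 to 13.72. Krt2 was at the floor on 2 arrays, the activated HG and the cKO bulge of set 1, and the other 7 on none. Ivl, at 9.62 on the activated HG, was not lower there than on the other HG arrays (8.50 to 9.61). Lor, at 8.90, was above the cKO HG of set 2 (8.81) and the Het bulge of set 2 (6.55). The remaining markers had their lowest value on the activated HG. Tmprss4 had its lowest and its highest value on the same arrays as the mean of the 8 markers. The part of suprabasal cells in the differences was not tested. Basal keratinocyte markers had their lowest mean on the activated HG too, at 12.53 against 13.68 or more elsewhere. So did upper follicle markers, at 10.91 against 11.80 or more, though Krt17, Lrig1 and Cd200 were not lowest there. The hair shaft marker mean was high there, at 12.22 against 8.15 to 9.88 on the other HG arrays. Of these markers Gata3 went the other way, at 11.57 against 12.28 to 13.01.

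**Figure D2:**
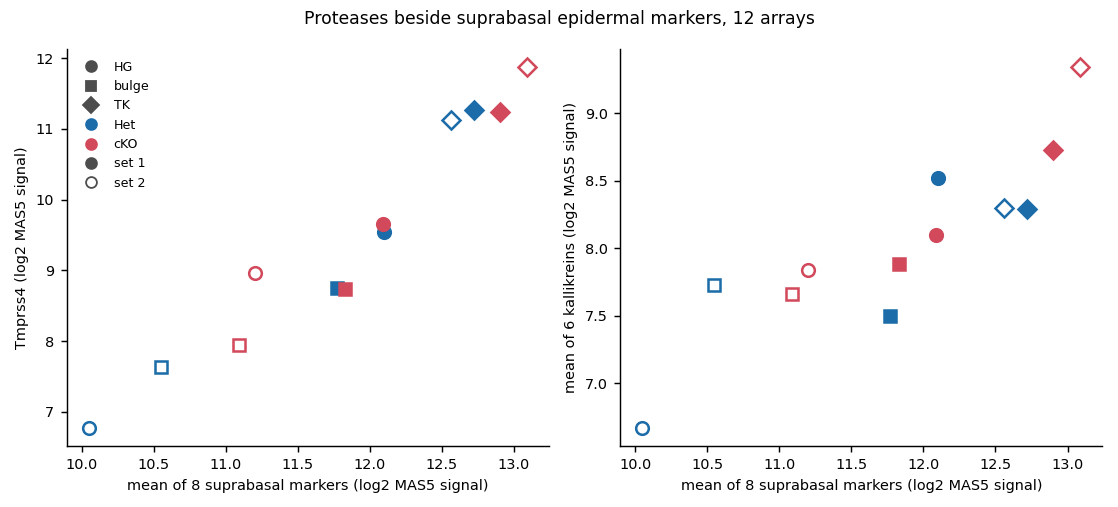
Tmprss4 (left) and the mean of the 6 kallikreins (right), as log2 MAS5 signal, against the mean log2 signal of 8 suprabasal epidermal markers on the 12 arrays. Circles are HG, squares bulge and diamonds total keratinocytes, blue is Het and red cKO, filled set 1 and open set 2. Tmprss4 runs from 6.78 at a marker mean of 10.05 (activated HG) to 11.87 at 13.09 (cKO total keratinocytes, set 2). The kallikrein mean takes in Klk6 and Klk10, which lie at the floor on some arrays.

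The genes whose profile over the 12 arrays was most like that of Tmprss4 were Mettl7a1 (Pearson r = 0.994), Npl (0.988), Krt1 (0.983), Fads2b (0.983) and Gsta2 (0.982). Krt1 is the keratin that cells switch on as they leave the basal layer. It ran from 9.66 on the activated HG to 14.78 in cKO total keratinocytes of set 2. For the mean of the 6 kallikreins they were Ces5a (0.957), 1600014C10Rik (0.951), Gpr160 (0.945), Sec14l2 (0.941) and Mcu (0.936). This mean takes in Klk6 and Klk10, which were dim and lay at the floor on some arrays. The 12 arrays share fractions and sets, so these coefficients describe the arrays and carry no p. Tmprss4 was chosen for its gap between stem cell fractions and total keratinocytes. A correlation over the 12 arrays includes that gap, so nothing further is read from the likeness to Krt1. Among the 10 genes themselves, the pair most alike depended on the arrays. Klk5 and Klk8 had 0.936 over the 12 arrays, 0.899 over the 8 stem cell arrays and 0.671 over the 7 without the activated HG. St14 and Spint1 had 0.865, 0.935 and 0.707, and Klk7 and Spink5 had 0.739, 0.832 and 0.909.

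Set 2 and set 1 were compared within the stem cells of each genotype, which for Het is activated against quiescent; set and activation cannot be told apart there. In Het, set 2 minus set 1 was -2.06 for Spink5 (SE 0.46, adjusted p = 0.093), -1.93 for Tmprss4 (SE 0.46, adjusted p = 0.10) and -1.34 for Klk7 (SE 0.26, adjusted p = 0.059). None of the 9 genes passed the test in limma, where 0.707% of all 12589 genes did. At an unadjusted p under 0.05 there were 8 of the 9, against 16.8% of all genes. The difference was -1.29 for Klk11 (SE 0.50), -1.19 for Klk8 (SE 0.44) and -1.04 for Klk5 (SE 0.41), with adjusted p of 0.25, 0.23 and 0.25. Matriptase and its inhibitor had the opposite sign: St14 was higher by 1.01 (SE 0.31, adjusted p = 0.17) and Spint1 by 0.68 (SE 0.25, adjusted p = 0.23). Klk10 also had a positive difference, at 0.58 (SE 0.82, adjusted p = 0.76), with 1 of its arrays at the floor. The median was -1.19 for the 9 genes and -0.09 for all.

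The activated HG and bulge did not differ from their quiescent counterparts by the same amount. For Tmprss4 set 2 minus set 1 was -2.75 in the HG and -1.11 in the bulge, and for Spink5 -3.13 and -0.98. With the activated bulge left out, 8 of the 9 genes passed, all but Klk10, among them Tmprss4 at -2.82 (adjusted p = 8.99e-05), Spink5 at -3.06 (adjusted p = 1.09e-05) and St14 at 1.53 (adjusted p = 8.02e-04). In that fit 20.5% of all genes passed. With the activated HG left out, 2 passed, Klk7 at -1.24 (adjusted p = 0.046) and Spink5 at -1.06 (adjusted p = 0.044), against 2.11% of all genes. In both fits the lone array of set 2 is assumed to vary like the other groups. Lor, which encodes the cornified envelope protein loricrin, was the 1 of the 8 suprabasal markers that passed the test over all arrays, and was lower. The median difference of the 8 was -1.56. The part of suprabasal cells in it was not tested.

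In cKO stem cells, labelled quiescent in set 1 and aberrantly quiescent in set 2, the fitted set differences of the 9 genes lay between -0.74 (Tmprss4) and 0.80 (Klk10). Tmprss4 had -0.74 with an SE of 0.46 (adjusted p = 0.81), and the difference was -0.64 for Spink5 (SE 0.46, adjusted p = 0.83), -0.55 for Klk11 and -0.04 for Klk8. No gene of the 9 passed, and neither did any of the 12589 tested (limma, 0% of all). At an unadjusted p under 0.05 there were 0 of the 9, against 6.17% of all genes. In all 4 HG and bulge pairs together, Tmprss4, Klk5, Klk7, Klk11 and Spink5 were lower in set 2 than in set 1, a count of 5 against 14.9% of all genes that was added after the values had been seen. With quantile normalization it was 4, without Klk5, against 12.3%.

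The difference between the genotypes in the effect of the set was tested as an interaction, and no gene of the 9 passed in limma, where 0.00794% of all genes did. At an unadjusted p under 0.05 there were 3, against 7.28% of all genes. The set effect in cKO minus that in Het was -1.50 for St14 (SE 0.44, adjusted p = 0.65), 1.42 for Spink5 (SE 0.66, adjusted p = 0.69), 1.19 for Tmprss4 (SE 0.65, adjusted p = 0.72) and 1.08 for Klk7 (SE 0.37, adjusted p = 0.66). Without the activated bulge, 4 passed: Tmprss4 at 2.07 (adjusted p = 0.010), St14 at -2.03 (adjusted p = 0.0026), Klk8 at 1.93 (adjusted p = 0.020) and Spink5 at 2.42 (adjusted p = 0.0014), where 7.98% of all genes passed. The lone activated HG then stands for Het of set 2.

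**Figure D3:**
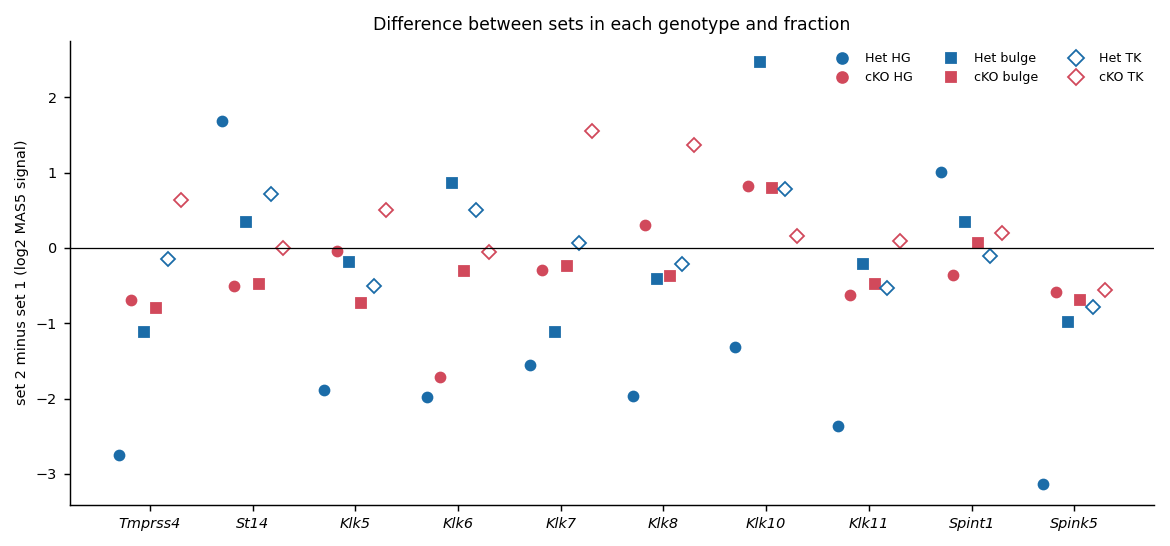
Difference of set 2 minus set 1 in log2 MAS5 signal (vertical axis) for each of the 10 genes, 1 point per genotype and fraction. Circles are HG, squares bulge and open diamonds total keratinocytes, with Het in blue and cKO in red; Klk6 and Klk10 include arrays at the floor. The blue circle is the lowest point for Tmprss4 (-2.75), Klk11 (-2.37) and Spink5 (-3.13) and the highest for St14 (1.68).

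In total keratinocytes set 2 minus set 1 was taken in each genotype: Klk7 had 0.06 in Het and 1.55 in cKO, and Klk8 -0.21 and 1.37. In the fit over both, Tmprss4 was higher in set 2 by 0.24 (SE 0.21, adjusted p = 0.50) and Klk7 by 0.81 (SE 0.32, adjusted p = 0.16), while Spink5 had a difference of -0.68 (SE 0.16, adjusted p = 0.059), with -0.79 in Het and -0.56 in cKO. None of the 9 passed (limma), where 1.96% of all 11121 genes did, and at an unadjusted p under 0.05 there were 2, against 26.1%. Spink5 passed where all probe sets of every gene were averaged (adjusted p = 0.039) or each kept as its own feature (adjusted p = 0.032), with the same difference, where 7.75% of all genes and 11.6% of all probe sets passed. Suprabasal markers had a median set difference of 0.07.

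The genotypes, cKO against Het over all 12 arrays, gave no gene past the test, neither of the 9 nor of all 12749 tested (limma, 0% of all). At an unadjusted p under 0.05 there was 1, Klk11, against 8.62% of all genes. Klk11 was higher in cKO in 6 of 6 pairs, by 0.44 to 2.26, and by 0.98 in the fit (SE 0.24, adjusted p = 0.35). Its values in HG were 9.49 and 8.86 in cKO and 8.96 and 6.59 in Het, in bulge 8.08 and 7.60 against 7.15 and 6.93, and in total keratinocytes 9.65 and 9.74 against 9.22 and 8.68. Klk11 was thus higher in cKO within each fraction and set, the quiescent set 1 included, and the ranges overlapped in the HG alone. How many of all genes were higher in each pair was not counted, so nothing is read from this run. In set 2 the HG and bulge pairs compared aberrantly quiescent cKO with activated Het, so genotype and state cannot be told apart there. These pairs also enter the fit over 12 arrays. Klk10 differed by 0.74 (adjusted p = 0.59), Klk8 by 0.57 (adjusted p = 0.61), Tmprss4 by 0.55 (adjusted p = 0.59) and St14 by -0.40 (adjusted p = 0.65). Klk7, at -0.02, was even. The median was 0.35 for the 9 genes and 0.01 for all.

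**Figure D4:**
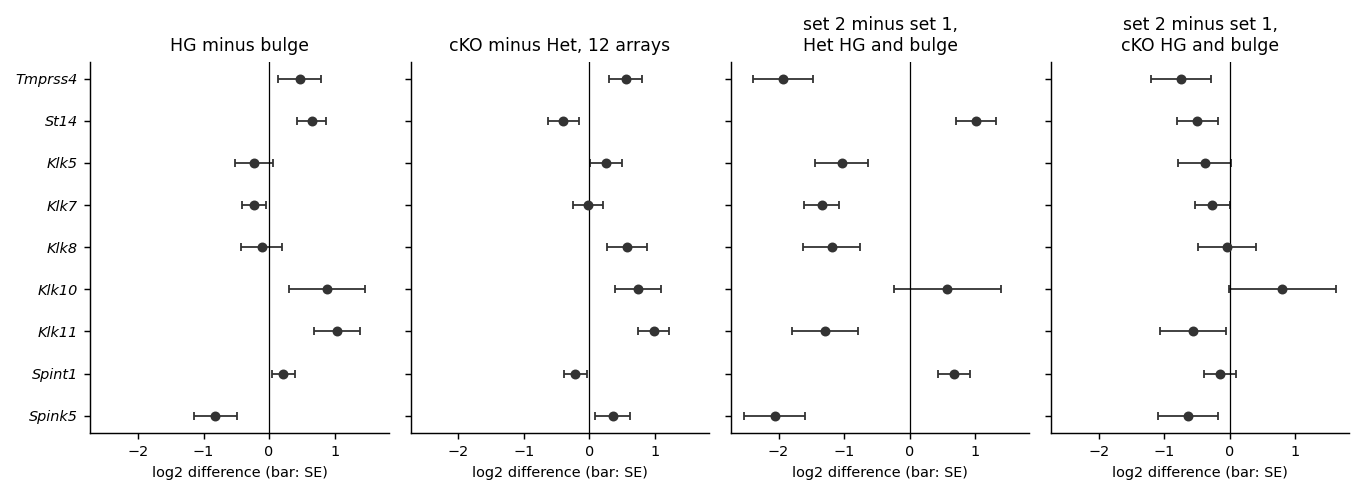
Fitted log2 differences of the 9 tested genes (points) with their standard errors (bars) in 4 comparisons: HG minus bulge, cKO minus Het over 12 arrays, and set 2 minus set 1 in Het and in cKO stem cells. No point passed an adjusted p of 0.05, and the Het set panel holds the differences of largest size, Spink5 at -2.06 and Tmprss4 at -1.93.

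Within total keratinocytes, cKO minus Het was 1.11 for Klk8 (SE 0.44), 1.06 for Klk10 (SE 0.52), 0.75 for Klk11 (SE 0.27) and 0.65 for Klk5 (SE 0.30), with an adjusted p of 1.00 for each. No gene of the 9 or of all 11121 passed (limma, 0%), and at an unadjusted p under 0.05 there were 2, against 2.22% of all genes. The cKO array of set 2 had the highest signal of the 4 for Tmprss4 (11.87), Klk5 (10.22), Klk7 (11.37), Klk8 (11.30), Klk10 (7.10) and Klk11 (9.74), and its suprabasal marker mean of 13.09 was the highest as well. Without the other cKO array, the one with milk protein RNA, Klk8 was higher in cKO by 1.79 (adjusted p = 0.0081, where 0.547% of all genes passed), a value that rests on that single set 2 array. The part of suprabasal cells in it was not tested.

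The other genes of the pathway were read from lists. Of 20 other kallikreins 13 were measured and at most 4 passed the filter in a comparison, and none passed a test in any of them. Klk1 was above the filter on all 12 arrays, at 7.47 to 9.02. Klk9, which lies inside the chromosome 7 cluster, was above it on 3 arrays, and Klk4 was at the floor on 11. Most of these other kallikreins were thus dim on the arrays.

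Of 24 other epithelial serine proteases 10 were tested between HG and bulge. In the HG 1 passed as higher and 3 as lower, beside the 19.2% of all genes that passed in this comparison. Prss8, or prostasin, the membrane protease that matriptase activates, fell by 1.56 (adjusted p = 0.0027), at 7.05 to 8.15 against 8.99 to 9.44, with no overlap. Plat, or tissue plasminogen activator, fell by 1.02 (limma, adjusted p = 0.015) and Masp1 fell by 1.58 (adjusted p = 0.014). Htra1 rose by 0.94 (adjusted p = 0.017). Fibroblast markers also fell in the HG, and their part in these falls was not tested. Against total keratinocytes, the stem cell fractions had a difference of -1.24 for Plau (urokinase), -1.11 for Tmprss13 and 1.09 for Plat, as a description.

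Of 23 other protease inhibitors 13 were tested between HG and bulge, and 2 passed as higher and 4 as lower in the HG, beside 19.2% of all genes. Serpinb7 rose by 1.50 (adjusted p = 8.05e-04) and Serpinb2 by 1.38 (adjusted p = 0.0088), while Serpinf1 fell by 3.09 (adjusted p = 2.11e-05), Spink2 fell by 2.55 (adjusted p = 1.75e-04), Serpinb8 fell by 1.73 (adjusted p = 0.0017) and Serpinb5 fell by 0.74 (adjusted p = 0.040). Fibroblast markers fell with these 4, and their part was not tested. Serpinb7, a serpin of the epidermis, was also the only gene of the 4 pathway lists that passed in Het set 2 against set 1, where it fell by 3.02 (SE 0.27, adjusted p = 0.0051). Stem cell fractions minus total keratinocytes gave -2.13 for Serpinb12, -1.74 for Cst6, -1.71 for Spink4, -1.59 for Serpinb7 and -1.21 for Serpinb2, and 1.54 for Spink2 and 1.38 for Serpinf1. Spint2, the close relative of Spint1, stayed between 13.18 and 13.77 on all 12 arrays.

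Of 27 targets and partners in skin 21 were tested between HG and bulge. In the HG 3 passed as higher and 1 as lower, a share near the 19.2% of all genes. Dsg1a, a desmosomal cadherin that kallikreins cut, rose by 1.37 (adjusted p = 3.81e-04) and Dsg1b by 0.79 (adjusted p = 0.039). F2r, a thrombin receptor cut open by proteases, rose by 1.10 (adjusted p = 0.0032), and Epcam, a substrate of matriptase, fell by 0.50 (adjusted p = 0.0498). For the same difference from total keratinocytes, Dsg1a had -1.98, Casp14 -1.62, Dsc1 -1.53, Dsg1b -1.48, Mst1 -1.14 and Tslp -1.10, while Scnn1g had 1.14. No gene of the 4 lists passed for cKO against Het, overall or in total keratinocytes, for the set in total keratinocytes or in cKO stem cells, or for the interaction. These lists, too, were drawn up with results of these arrays known.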

How the data were processed

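RNA of 12 sorted mouse skin cell samples was measured on Affymetrix arrays. The deposited values are linear signal intensity per probe set made with MAS5, per the submitters' processing notes, with no version named. On each array the mean, with 2% trimmed at each end, was 500, and array medians ran from 63.9 to 108.7. The number of arrays limits the precision.

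After removal of 64 controls, 45037 of 45101 probe sets remained: 34945 carried a single symbol in the platform annotation, 932 carried several and 9160 carried none; 34741 symbols were taken by gene ID. Signals were floored at 20.7, the 25th percentile, and taken as log2. A gene, represented by its brightest probe set, was tested where it was above the median signal of 84.7 on at least 2 arrays of the fit. Fits over all genes used limma 3.58.1 in R 4.3.3 (lmFit, eBayes with trend, two-sided, Benjamini-Hochberg over all genes, threshold 0.05). The condition (genotype and set) was a block for HG against bulge, the fraction and set a block for cKO against Het, and 1 fit with genotype by set and a fraction term gave the set effects and their interaction. Floor, filter, scaling, probe set rule and left-out arrays were varied, and the code was tested on simulated data.

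Neither labels nor data show that the same set number pairs individual Het and cKO samples. Differences between sets in Het and cKO correlated across genes at 0.495 in total keratinocytes, 0.209 in HG and 0.132 in bulge. A shift shared by all samples of a set would also give such values. The 10 genes and all lists were chosen with earlier results of these data known. Named are the 10 genes, list genes past the threshold (at most 4 per direction, list and comparison, and for counts of 5 or fewer all), and the 5 genes of highest correlation with each of 2 profiles. The 6 targets and partners lower in stem cell fractions than in total keratinocytes were all named, past that limit. Other names were chosen after their values were seen. The promoters of Tmprss4, St14 and Spink5 were not used here, nor were protein sequences.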

Additional observations from a re-analysis of the deposited data

Results flagged for a closer look

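For St14, the set difference had opposite signs in the stem cells of the genotypes: set 2 minus set 1 was 0.34 to 1.68 in the Het pairs and -0.51 to -0.48 in the cKO pairs, a gap of 1.50, and the interaction test in limma did not pass (adjusted p = 0.65).

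For Klk7, set 2 minus set 1 was -1.56 to -0.24 in the 4 pairs of HG and bulge and 0.06 to 1.55 in both pairs of total keratinocytes, a gap of -1.61 that was not tested.

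For Klk8, cKO minus Het was -0.11 to -0.07 in both bulge pairs and 0.32 to 1.90 in both pairs of total keratinocytes. This gap of -1.20 was not tested. The bulge pair of set 2 compared aberrantly quiescent cKO with activated Het.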

How the results depend on the processing

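The number of the 9 genes past the threshold was 0 in each tested comparison and moved under these alternatives. Between HG and bulge it was 1 with quantile normalization (Klk11; 21.4% of all genes) and 0 to 2 with 1 condition left out, the 2 (Tmprss4, Klk11; 22.7% of all genes) being without Het set 2, so both are at or below the share of all genes. For cKO against Het in total keratinocytes it was 0 to 1 with 1 array left out, the 1 (Klk8; 0.547% of all genes) being without the cKO array of set 1. For the set in total keratinocytes it was 1 (Spink5) with the mean of all probe sets (7.75% of all genes) and 1 with every probe set kept (11.6% of all probe sets). With 1 array left out it was 0 to 8 for the set in Het stem cells and 0 to 4 for the interaction; 8 and 4 were reached without the activated bulge array (20.5% and 7.98% of all genes), and 2 without the activated HG array in the first (2.11%). The cause was not tested. In the paired analysis, with the set number as a replicate block, Klk8 in total keratinocytes stayed at 1.11 (adjusted p = 0.49) and no gene passed; without the replicate block, Klk11 stayed at 0.98 for cKO against Het (adjusted p = 0.84). No called direction reversed. The fits leaving out 1 total keratinocyte array for the set comparison had no residual degrees of freedom and were not run. Klk6 and Klk10 lay near the floor, which limits what their values show.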

Other observations

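The hair shaft marker mean, high on the activated HG array, was also higher in total keratinocytes of set 2 than of set 1. It was 11.55 in Het and 9.41 in cKO of set 2, against 7.68 and 7.91 in set 1. Gata3 did not rise in Het (13.12 in set 2, 13.31 in set 1), nor Hoxc13 in cKO (8.38 and 8.97). In those same arrays Spink5 was lower in set 2 in both genotypes, whereas Tmprss4 and Klk5 were lower in set 2 in Het and higher in cKO.

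Klk11 was the one gene of the 10 that was higher in cKO in each of the 6 pairs of fraction and set. Its smallest pair difference was 0.44 and its largest, in the HG of set 2, was 2.26. The HG and bulge pairs of set 2 compared aberrantly quiescent cKO with activated Het, so genotype and state cannot be told apart there. The share of all genes with such a run was not counted, and Klk11 did not pass the test (limma, adjusted p = 0.35).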
